A study of Mus musculus with 4 samples.

Results

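The 33 genes described here encode the folding machinery of the endoplasmic reticulum (ER) and the unfolded protein response that controls it. They were taken by symbol from the feature list of each of 4 single-nucleus RNA matrices, which holds 32286 features, and all 33 were found once. Nuclei came from dissected primary motor areas of C57BL/6N mice, with 1 library per group. The first mouse group slept ad libitum with no sleep deprivation, and the second was sleep deprived by gentle handling. The other two had local administration of a vector, AAV8-hSyn-FLAG-SIK3(WT) or AAV8-hSyn-FLAG-SIK3(Ex13del). SIK3 is a protein kinase that regulates sleep need, and the vectors carry its wild-type form or a form without exon 13, driven by the neuronal synapsin promoter. These are called the ad lib sleep, sleep deprivation, wild-type vector and exon 13 deleted vector libraries, and values given in fours follow that order. No library is labelled as an empty or reporter vector, and neither vector library is labelled as sleep deprived. How many animals each library holds was not given in the sources used here.

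Secreted and membrane proteins enter the ER through the Sec61 channel and fold there with the help of chaperones and of disulfide isomerases, which form and rearrange disulfide bonds. Proteins that do not fold are passed back to the cytosol and degraded. When unfolded proteins accumulate, the sensors Ire1 (gene Ern1), Perk (Eif2ak3) and Atf6 signal to the nucleus: Ire1 splices the Xbp1 message, Perk slows translation through eIF2α and lets Atf4 be translated, and Atf6 is cut to release a transcription factor. Neurons make large amounts of membrane and secreted protein, and the ER chaperone BiP (Hspa5) has been followed in the cortex of sleep-deprived animals as a readout of this response.

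Promoter sequences are shown because Atf6 and Xbp1 act through short elements close to the start site, and these separate the members in a way that the counts do not use. A window from 250 bases before to 50 bases after the start was found in RefSeq (GRCm38.p6, the assembly also called mm10) for 26 of the 33 genes. The ER stress response element, CCAAT and CCACG with any 9 bases between them, was searched on both strands and found in 8 of them, Calr, Canx, Creld2, Dnajc3, Hsp90b1, Hspa5, Pdia6 and Syvn1, against 0.119% of 32851 promoter windows. The second form of the element, ATTGG and CCACG with any 1 base between them, was found in Dnajb11 and Herpud1, against 0.0365% of windows. TGACGTG, a core of sites bound by Atf6, was found in Hspa5 alone among the members and in 2.01% of windows. TGACGTGG, which contains TGACGTG, and TGACGTCA were in no member's window, against 0.676% and 1.79% of all windows. A match is a run of letters in the window and not a measured binding site. The element of each gene follows, read 5′ to 3′ on the strand where it matched, with the fixed letters in capitals.
Hspa5, chr2:34772025-34772043: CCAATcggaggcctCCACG
Pdia6, chr12:17266491-17266509: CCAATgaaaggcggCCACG
Calr, chr8:84847075-84847093: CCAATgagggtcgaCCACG
Canx, chr11:50325800-50325818: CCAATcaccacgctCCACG
Dnajc3, chr14:118937827-118937845: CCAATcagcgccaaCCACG
Hsp90b1, chr10:86705533-86705551: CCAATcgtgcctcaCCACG
Hsp90b1, chr10:86705638-86705656: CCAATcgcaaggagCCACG
Creld2, chr15:88819520-88819538: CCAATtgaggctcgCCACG
Syvn1, chr19:6046532-6046550: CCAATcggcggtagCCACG
Herpud1, chr8:94386377-94386387: ATTGGgCCACG
Dnajb11, chr16:22857852-22857862: ATTGGcCCACG

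The whole windows of Hspa5, Pdia6 and Calr are shown because these genes were highest in the sleep deprivation library in most cell groups, and that of Herpud1 shows the second form. Capitals mark the fixed letters of the element, and each window is given in the direction of its gene. In Calr the element lies on the opposite strand, so its reverse complement is seen.
Hspa5, chr2:34771840-34772139, + strand: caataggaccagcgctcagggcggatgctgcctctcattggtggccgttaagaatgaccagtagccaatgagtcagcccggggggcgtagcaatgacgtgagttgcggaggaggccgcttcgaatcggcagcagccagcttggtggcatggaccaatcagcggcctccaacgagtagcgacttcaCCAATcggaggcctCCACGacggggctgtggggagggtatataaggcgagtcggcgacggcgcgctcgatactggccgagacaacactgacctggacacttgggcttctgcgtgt
Pdia6, chr12:17266339-17266638, + strand: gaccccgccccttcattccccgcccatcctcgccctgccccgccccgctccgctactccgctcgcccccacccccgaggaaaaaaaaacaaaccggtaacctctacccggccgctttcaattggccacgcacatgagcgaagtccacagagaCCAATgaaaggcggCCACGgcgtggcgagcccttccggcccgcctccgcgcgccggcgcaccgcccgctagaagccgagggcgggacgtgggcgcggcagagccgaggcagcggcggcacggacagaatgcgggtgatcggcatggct
Calr, chr8:84846882-84847181, - strand: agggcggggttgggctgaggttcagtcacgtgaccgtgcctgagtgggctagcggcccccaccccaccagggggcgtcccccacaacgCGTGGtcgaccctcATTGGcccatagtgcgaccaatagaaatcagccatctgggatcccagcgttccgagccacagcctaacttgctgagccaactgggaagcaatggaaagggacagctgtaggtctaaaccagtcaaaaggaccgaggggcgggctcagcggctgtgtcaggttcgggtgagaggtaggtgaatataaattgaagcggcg
Herpud1, chr8:94386179-94386478, + strand: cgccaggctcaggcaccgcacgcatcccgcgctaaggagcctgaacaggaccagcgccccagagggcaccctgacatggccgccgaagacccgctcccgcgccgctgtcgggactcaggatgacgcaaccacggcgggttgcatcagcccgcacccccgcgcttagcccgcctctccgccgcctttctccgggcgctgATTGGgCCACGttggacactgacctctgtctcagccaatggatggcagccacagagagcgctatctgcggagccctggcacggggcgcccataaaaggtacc

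The files hold 5944 to 9438 nuclei barcodes and 43655557 to 54070503 unique molecules (UMIs) per library. After filtering and removal of called doublets, 5311 to 8222 nuclei were kept. Excitatory neurons gave 3711, 1863, 2705 and 2118 nuclei, with a median of 7414, 13813, 9141 and 9999 UMIs, so the sleep deprivation library has the fewest and deepest. The libraries share 9 to 16 barcodes per pair. A cluster of low depth whose leading genes mark no class holds 681, 1506, 786 and 704 nuclei and was left unnamed. It is led by Ttr, a transcript of the choroid plexus, and Ttr stood at 41.7, 281, 1.45 and 0 UMIs per 1000000 in it and at 6.07, 23.1, 0.920 and 0.874 in excitatory neurons. Although the tissue is labelled as cortex, 211 to 413 nuclei per library had the markers of striatal projection neurons. Levels below are summed UMIs of a cell group per 1000000 of its UMIs (CPM), with an exact Poisson 95% interval, and differences are ratios of CPM with an exact 95% interval. Both intervals cover counting error only: with 1 library per group there is no replicate error, no test and no p-value. CPM is not per length, so levels are compared between libraries and cell groups and not between genes. In a summed level, fewer nuclei with the transcript and less of it per nucleus cannot be told apart.

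In excitatory neurons 31 of the 33 genes passed the floor of a mean of 5 CPM and 100 UMIs in the libraries compared. Sdf2l1, a partner of ER Hsp40 proteins, stayed under it at 3.25 to 4.50 CPM, and so did Creld2, a secreted ER stress protein, at 3.43 to 4.47. Among the sensors, Ern1 stood at 22.1, 25.6, 28.1 and 24.1 CPM and was lowest in the ad lib sleep library. Its target Xbp1 stood at 22.8, 28.5, 26.5 and 28.2 CPM and was again lowest there. These counts do not separate spliced from unspliced Xbp1, so they say nothing about Ire1 activity. Eif2ak3 (chr6:70844515-70905245, + strand) stood at 28.1, 26.2, 25.4 and 32.7 CPM, highest in the exon 13 deleted vector library. Atf6 stood at 138, 156, 139 and 148 CPM. Wfs1, an ER membrane protein involved in calcium handling and in turnover of Atf6, stood at 6.82, 8.49, 6.37 and 10.9 CPM (gene at chr5:36966104-36989205, - strand), again highest with the exon 13 deleted form. Ppp1r15b, the constitutive phosphatase subunit that reverses Perk signalling, was low throughout at 5.56 to 8.32 CPM.

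Of the chaperones, Hspa5 (chr2:34771970-34777547, + strand) stood at 44.8, 61.1, 42.9 and 46.9 CPM: 3 libraries lay close together and the sleep deprivation library lay above them. Calr, a lectin chaperone that holds glycoproteins, had the same order of extremes with 44.7, 54.8, 41.8 and 43.7 CPM. Its membrane-bound relative Canx was nearly level at 77.2, 76.3, 78.9 and 80.3 CPM. Dnajb9, an Hsp40 co-chaperone that represses Ire1, went the other way with 14.5, 9.51, 11.5 and 13.5 CPM and was lowest in the sleep deprivation library. Manf, a secreted protein that binds BiP, stood at 112, 97.2, 109 and 111 CPM and was lowest there too. Hsp90b1, the ER Hsp90, ranged from 61.5 to 70.4 CPM, Dnajc3 from 47.8 to 56.2, Dnajb11 from 24.8 to 28.9 and Hyou1 from 13.03 to 13.8.

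The disulfide isomerases split. Pdia3 (chr2:121413775-121438687, + strand), the isomerase that works with Calr and Canx, stood at 35.3, 50.4, 45.6 and 51.6 CPM, so the ad lib sleep library was the one that stood apart, below the other three. Pdia4 had that same shape at a low level, with 6.75, 10.1, 9.13 and 9.37 CPM. Pdia6 stood at 41.4, 54.1, 45.0 and 46.7 CPM and was highest in the sleep deprivation library. P4hb ranged from 7.96 to 9.32 CPM and Pdia5 from 13.7 to 15.6, with no library apart from the rest.

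The degradation arm held Sel1l and Syvn1, the core of the ubiquitin ligase of the ER membrane, at 85.8 to 94.7 and 9.72 to 12.4 CPM. Edem1, which directs misfolded glycoproteins to that ligase, stood at 9.67, 8.59, 14.2 and 12.3 CPM, and both vector libraries lay above both others. Herpud1, a scaffold of the same complex, ranged from 16.8 to 20.8 CPM, the channel components Derl1 and Derl2 from 13.5 to 17.1 and from 14.9 to 16.6, and Selenos, which recruits the p97 ATPase, from 25.6 to 30.2. The translocation arm was the most even. Sec61a1, the pore of the channel, ranged from 23.2 to 23.7 CPM, Sec61b from 11.5 to 12.4, and the translocon-associated proteins Ssr1 and Ssr2 from 32.4 to 35.6 and from 9.77 to 10.9.

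**Figure D1:**
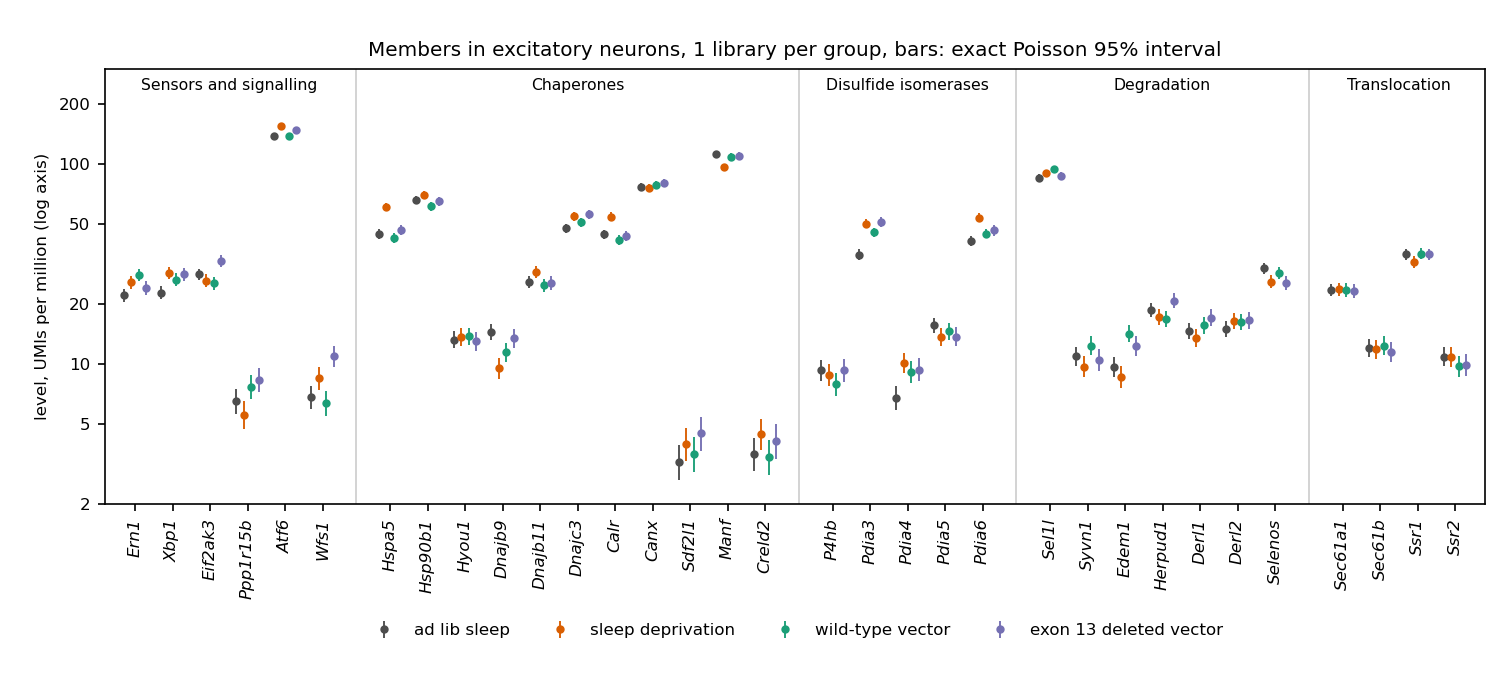
Level of each of the 33 genes in excitatory neurons of the 4 libraries (y axis: CPM, log scale; bars: exact Poisson 95% interval), grouped by arm. Hspa5, Calr and Pdia6 are highest in the sleep deprivation library, Dnajb9 and Manf are lowest in it, and Pdia3 is lowest in the ad lib sleep library.

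Sleep deprivation was compared with ad lib sleep first. A gene was counted as higher at a ratio of 5/4 or more and as lower at 4/5 (0.8) or less. In excitatory neurons 5 of 31 members were higher, against 7.18% of 11992 genes, and 1 was lower, against 13%. The median log2 ratio of CPM + 1 was 0.01 over the members and -0.03 over all genes, so the list as a whole lay close to the rest and a few members stood out. Hspa5 was 1.36-fold higher (1.27 to 1.46). The 3 disulfide isomerases past the threshold were higher: Pdia3 by 1.43-fold (1.32 to 1.54), Pdia4 by 1.502-fold (1.252 to 1.804) and Pdia6 by 1.31-fold (1.21 to 1.41). Xbp1 lay at the threshold, with an interval of 1.13 to 1.39, and under it at 1.20 as a mean of nuclei. Dnajb9 was lower, at 0.654 of the ad lib sleep level (0.560 to 0.762). Just under the threshold lay Wfs1, with an interval of 1.03 to 1.51, and Calr at 1.23-fold (1.14 to 1.32).

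By arm, the summed CPM of the isomerases was 1.27-fold higher, that of the sensors 1.11-fold and that of the chaperones 1.05-fold, while degradation was at 0.982 and translocation at 0.962 of the ad lib sleep level. No member of the degradation or translocation arms passed the threshold in either direction. Of the 7 measured genes with the first form of the ER stress response element, Hspa5, Pdia6 and Calr had the ratios above. Dnajc3 was at 1.15, Hsp90b1 at 1.06, Canx at 0.989 and Syvn1 at 0.889. Of the genes with the second form, Dnajb11 stood at 28.9 CPM against 25.8 in ad lib sleep, and Herpud1 at 17.2 against 18.7. Pdia3 and Pdia4 were among the members most above ad lib sleep, and neither window held the element.

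The vector libraries separate these members further. They were prepared as libraries of their own and neither is labelled as sleep deprived, so setting them beside the sleep deprivation library was a choice made after seeing the data. Against the wild-type vector library, Hspa5 in the sleep deprivation library was 1.42-fold higher and Calr 1.31-fold, but Pdia3 only 1.10-fold and Pdia4 1.11-fold. Against the exon 13 deleted vector library, Pdia3 stood at 0.978. Thus in the levels as counted Hspa5 and Calr had 1 library above 3 others, while Pdia3 and Pdia4 had 1 library, ad lib sleep, below 3 others. For Hspa5 and Calr this shape depends on the low-depth profile, as given below.

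**Figure D2:**
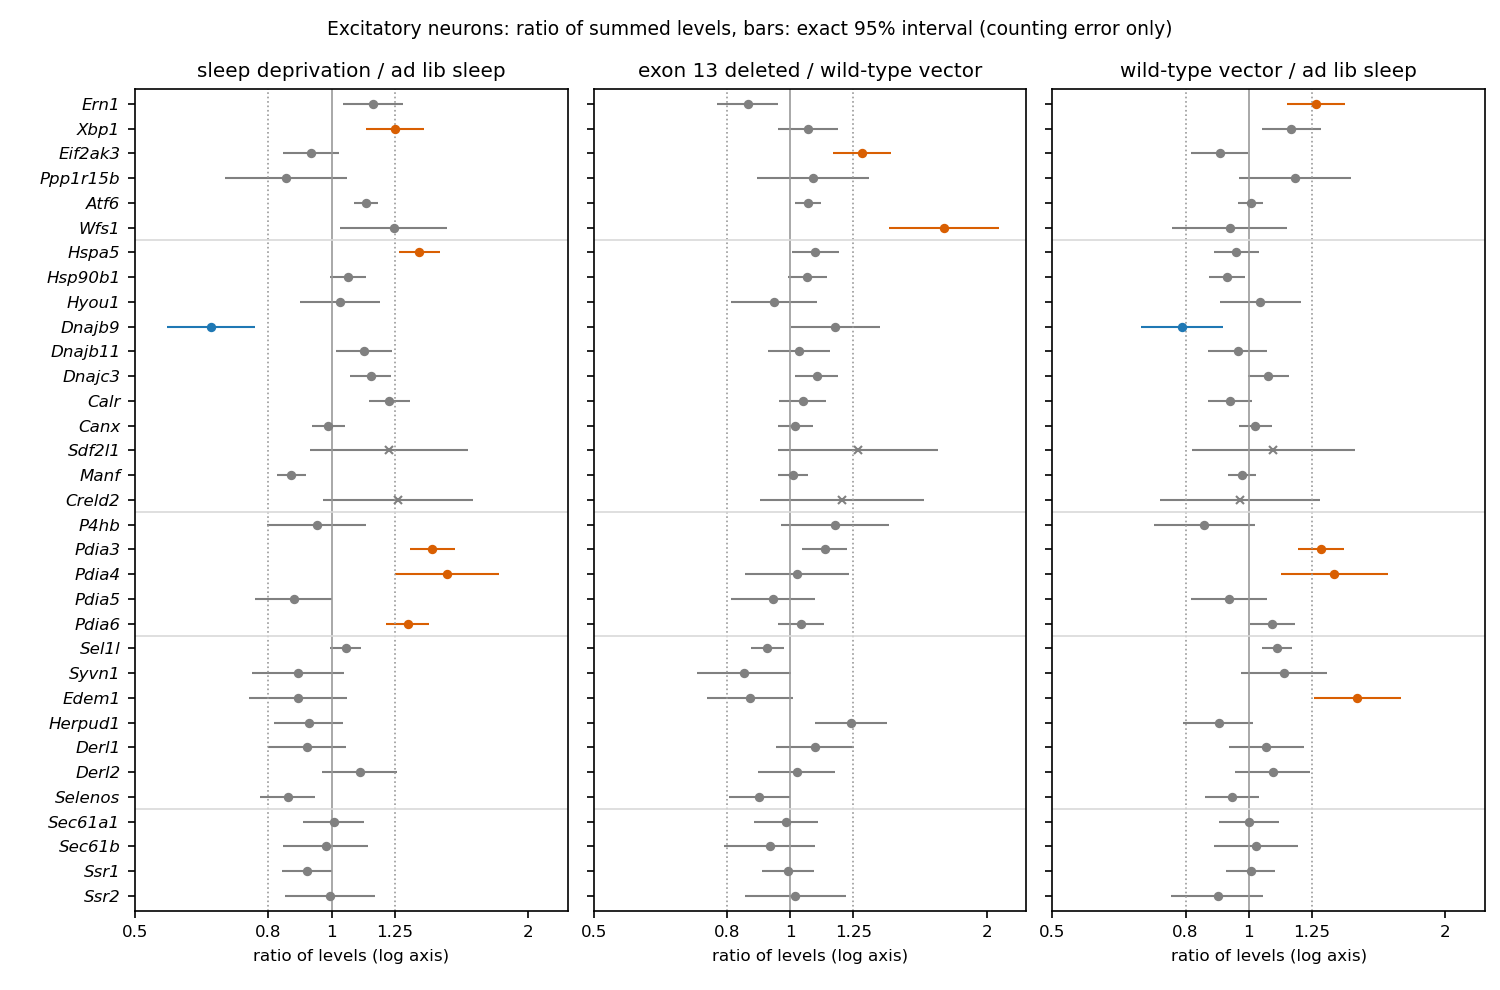
Ratio of summed levels in excitatory neurons for the 33 genes in 3 comparisons (x axis: ratio, log scale; bars: exact 95% interval, counting error only; dotted lines: 4/5 and 5/4; crosses: under the floor). In sleep deprivation over ad lib sleep Hspa5, Xbp1, Pdia3, Pdia4 and Pdia6 lie at or right of 5/4 and Dnajb9 left of 4/5.

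The low-depth cluster moved with these values. In it Hspa5 stood at 145, 348, 172 and 148 CPM, a ratio of 2.39 (2.04 to 2.82) for sleep deprivation over ad lib sleep. Of the 19 members measured there, 10 were higher, against 30.3% of 6467 genes, and 0 were lower, against 19.6%. They were Hspa5, Pdia3 at 1.87-fold, Pdia6 at 1.58, Ssr2, Dnajb11, Hsp90b1, Ssr1, Calr, Xbp1 and Dnajb9, and the median log2 ratio was 0.38 against 0.10 over all genes. Dnajb9 was thus higher there (1.31, 0.912 to 1.90) and lower in excitatory neurons. If the inhibitory transcript Gad1 in excitatory neurons is taken to come from this profile, it makes up 9.51%, 7.56%, 8.36% and 9.38% of their UMIs. With that part removed, the ratio of Hspa5 was 1.10, under 5/4. The ratio of Pdia3 was then 1.38, that of Pdia6 1.30 and that of Calr 1.29. Hspa5 was left at 34.2, 37.6, 31.1 and 36.4 CPM and Calr at 27.5, 35.3, 29.8 and 32.6. For both, the sleep deprivation library stayed highest but lay close to the exon 13 deleted vector library. Pdia3 was left at 29.2, 40.1, 40.3 and 45.3 CPM, with the ad lib sleep library still below the others. This removal was chosen after seeing the data. The part that this profile plays in the ratios beyond these values was not tested.

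The same direction was seen across cell groups. Hspa5 was highest in the sleep deprivation library in 14 of 14 groups with enough nuclei, which overlap, since subclasses belong to classes, and include the low-depth cluster. Calr and Pdia6 were highest in it in 12 of 14 groups and Dnajb11 in 10 of 14. Dnajb9 and Manf were lowest in it in 10 of 14 groups, and Pdia3 was lowest in the ad lib sleep library in 11 of 14. The share of all genes with such orders was not computed, so these counts have no background beside them. In upper-layer L2/3 IT neurons, which project within the telencephalon, Hspa5 stood at 45.3, 63.6, 46.8 and 49.7 CPM, and in L4/5 IT neurons at 43.1, 59.7, 39.1 and 39.4. In L6 CT neurons, which project to the thalamus, it stood at 51.4, 72.3, 49.8 and 49.2 CPM. In inhibitory neurons it stood at 51.0, 74.6, 51.1 and 52.0. Outside neurons the levels were higher, with 94.5, 135, 94.1 and 80.6 CPM in astrocytes and 105, 152, 117 and 116 in oligodendrocytes. In each of these the sleep deprivation library lay above the other three. Sized by the excitatory transcript Slc17a7, the low-depth profile would make up 30.6% and 29.9% of astrocyte UMIs in the ad lib sleep and sleep deprivation libraries. In oligodendrocytes it would make up 37.3% and 30.9%. Hspa5 stood at 145 and 348 CPM in that profile, so the order of these libraries in glia is not independent of it. Its part in these levels was not tested.

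**Figure D3:**
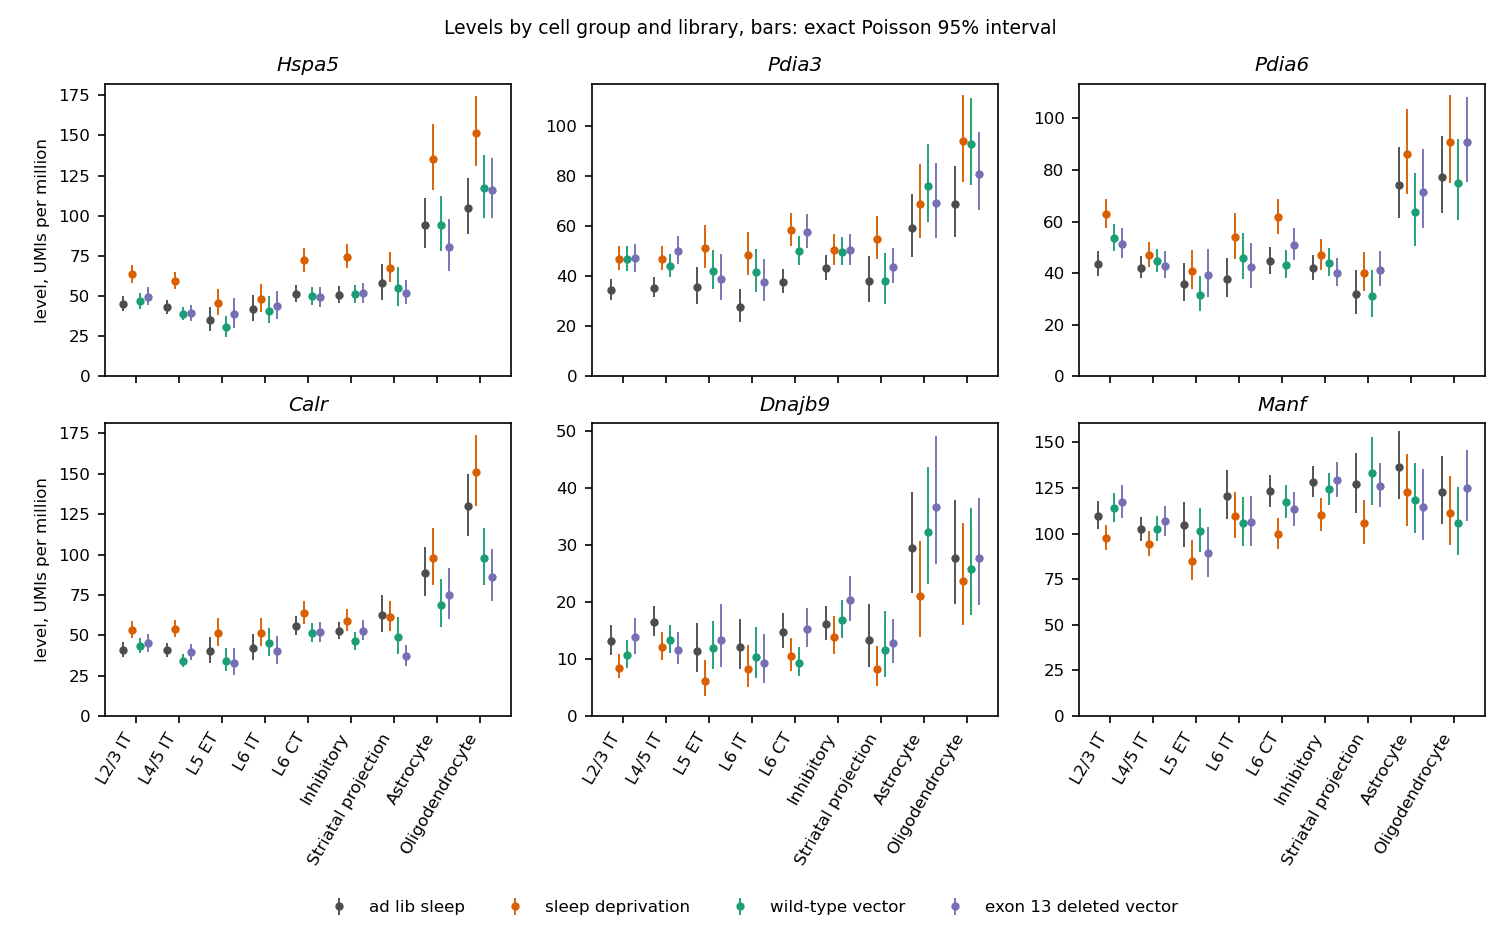
Levels of 6 members by cell group and library (y axis: CPM, from 0; bars: exact Poisson 95% interval). Hspa5 in the sleep deprivation library is above the other 3 libraries in every group shown, while Dnajb9 in it is below the ad lib sleep library in all 5 excitatory subclasses.

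Member counts for sleep deprivation over ad lib sleep by neuron subclass were as follows. In L2/3 IT neurons 5 of 31 measured members were higher (12.6% of all genes) and 1 lower (16.2%). The higher ones were Pdia4 at 1.80-fold (1.22 to 2.68), Pdia6 at 1.45, Hspa5 at 1.40, Pdia3 at 1.36 and Calr at 1.30, and Dnajb9 was at 0.647 (0.467 to 0.891). In L4/5 IT neurons 6 of 30 were higher (9.86%) and 2 lower (15.8%), namely Xbp1 at 1.49-fold (1.21 to 1.83), Hspa5 at 1.38, Derl2 at 1.37, Calr at 1.33, Pdia3 at 1.33 and Sec61b at 1.29, with Ppp1r15b at 0.715 and Dnajb9 at 0.734. Both subclasses held Hspa5, Calr and Pdia3 among the higher members and Dnajb9 among the lower.

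L5 ET neurons, the large cells that project out of the telencephalon, gave 119 nuclei in the sleep deprivation library and 229 in the ad lib sleep library. There 9 of 16 members were higher, against 15.4% of all genes, and 2 lower, against 12.8%, and the median log2 ratio was 0.32 against 0.02 over all genes. Pdia3 led with 1.43-fold (1.10 to 1.87), followed by Dnajb11 at 1.34, Hsp90b1 at 1.32 (1.04 to 1.67), Hspa5, Ssr1, Calr, Atf6, Sel1l and Ern1, the last at the threshold. Atf6 stood at 185 against 146 CPM. The intervals of Ern1, Hspa5, Dnajb11, Calr and Ssr1 included 1. Eif2ak3 was lower there, at 0.612 (0.446 to 0.835), or 25.0 against 40.7 CPM, and so was Selenos at 0.784. In L6 IT neurons 4 of 18 were higher (13.7%) and 2 lower (15.1%), with Pdia3 at 1.74-fold (1.30 to 2.35), Pdia6 at 1.43, Xbp1 at 1.35 and Ern1 at 1.27, and with Ssr1 at 0.783 and Pdia5 at 0.769. In L6 CT neurons 4 of 29 were higher (9.36%) and 4 lower (14.7%), the higher ones being Pdia3 at 1.55-fold (1.31 to 1.84), Hspa5 at 1.41, Pdia4 at 1.40 and Pdia6 at 1.39. The lower ones there were Pdia5 at 0.506 (0.327 to 0.768), Syvn1 at 0.657 (0.461 to 0.926), Dnajb9 at 0.708 and Selenos at 0.780.

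In inhibitory neurons 4 of 27 were higher (7.41%) and 2 lower (13.4%). Hspa5 was 1.46-fold higher (1.26 to 1.69) and Atf6 1.29-fold (1.11 to 1.49), P4hb was at 1.44 and Ssr2 at 1.26, and Selenos and Syvn1 were lower at 0.785 and 0.795, while the isomerases Pdia3 and Pdia6 did not reach 5/4 there. In astrocytes 3 of 15 were higher (15.5%) and 0 lower (17.0%): Hspa5 at 1.43-fold (1.14 to 1.79), Herpud1 at 1.33 and Dnajc3, an inhibitor of Perk that also acts as a co-chaperone, at 1.27. In oligodendrocytes 3 of 15 were higher (16.9%) and 1 lower (16.4%): Hspa5 at 1.44-fold (1.16 to 1.80), Pdia3 at 1.37, Dnajc3 at 1.35 and, lower, Sec61b at 0.701 (0.457 to 1.06). Whether any ratio differs between cell groups was not tested.

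The exon 13 deleted form was then compared with the wild-type form of SIK3. In excitatory neurons 2 of 31 members were higher, against 5.62% of 12016 genes, and 0 were lower, against 0.924%. The median log2 ratio was 0.04 over the members and 0.04 over all genes. Both higher members are sensors or regulators: Wfs1 at 1.72-fold (1.42 to 2.09) and Eif2ak3 at 1.29-fold (1.16 to 1.43). Herpud1 lay just under the threshold at 1.24-fold (1.09 to 1.41). In L2/3 IT neurons, where Wfs1 was higher than in L4/5 IT, L5 ET, L6 IT and L6 CT neurons, it stood at 15.3, 18.9, 13.9 and 22.2 CPM, a ratio of 1.60 (1.23 to 2.09) for the deleted form over the wild-type form. Among nuclei with 0 vector UMIs the ratios were 1.43 for Wfs1 and 1.17 for Eif2ak3, so only Wfs1 passed the threshold there.

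Vector RNA could be read per nucleus from a vector feature in the matrices, which had 0 UMIs in excitatory nuclei of both libraries without a vector. This split was chosen after seeing the data. In the exon 13 deleted vector library 98 excitatory nuclei had 3 or more vector UMIs and 1577 had 0, with a median of 9962.5 and 9641 UMIs in all. In the wild-type vector library the numbers were 85 and 2149. The vector feature stood at 2186 CPM in the 98 nuclei and 688 CPM in the 85, so vector RNA was not matched between the libraries. The vector feature was also among the leading genes of the low-depth cluster, so nuclei with 1 to 2 vector UMIs are not counted as carrying the vector. Nuclei of 1 library are not replicates, and their ratios compare nuclei within that library. Of the 98 nuclei, 59 belong to 1 cluster of excitatory nuclei described after the arms, so the printed ratios that move by over 1.5 times without it are given again. The split also differs in subclass: 4 of the 98 were L2/3 IT, 3 L4/5 IT and 17 L6 CT, against 383, 417 and 432 of the 1577.

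In the exon 13 deleted vector library, nuclei with vector RNA had more of many ER genes. There 19 of 31 members were higher by the same rule, against 39.1% of 11789 genes, and 2 were lower, against 21.5%. The median log2 ratio was 0.49 over the members and 0.16 over all genes. In the wild-type vector library 7 of 31 were higher, against 26.3% of 11798 genes, and 5 lower, against 14.9%, with medians of 0.03 and 0.09.

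All 6 sensors and regulators were among the 19. Wfs1 stood at 40.4 CPM with vector RNA and 8.91 without, 4.53-fold (3.20 to 6.32). Eif2ak3 stood at 107 and 28.5 CPM, 3.76-fold (3.07 to 4.59). Xbp1 was 2.09-fold higher (1.59 to 2.71), Ppp1r15b 2.15-fold (1.28 to 3.46), Ern1 1.42-fold (0.999 to 1.97) and Atf6 1.38-fold (1.20 to 1.58). In the wild-type vector library the same split gave 1.31 (0.553 to 2.65) for Wfs1, from 8 UMIs, then 1.59 (1.11 to 2.20) for Eif2ak3, 1.19 (0.802 to 1.71) for Xbp1 and 0.920 (0.764 to 1.10) for Atf6.

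The chaperones did not go together. Dnajb9 was 2.58-fold higher (1.78 to 3.66) and Hspa5 1.83-fold (1.47 to 2.27) in nuclei with the exon 13 deleted vector. Calr was at 0.860 (0.622 to 1.16), Canx at 1.05, Manf at 0.993 and Dnajc3 at 0.908, all with intervals that include 1. Among isomerases Pdia3 was 1.80-fold higher (1.45 to 2.21), while Pdia6 was at 0.852 (0.623 to 1.14). Of the 7 measured genes with the first form of the ER stress response element, Hspa5 was higher in this split and Syvn1 was lower at 0.745, from 10 UMIs. Of the genes with the second form, Herpud1 was 1.54-fold higher and Dnajb11 was at 1.06. In the wild-type vector library Hspa5 was at 1.07 (0.774 to 1.44), Dnajb9 at 0.756 (0.342 to 1.46) and Pdia3 at 0.740 (0.507 to 1.05).

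In the degradation arm Derl1 was 2.42-fold higher (1.71 to 3.35), Edem1 1.91-fold, Selenos 1.57-fold and Herpud1 1.54-fold with the exon 13 deleted vector, and Sel1l was at 0.821. All 4 translocation members were higher, from Sec61a1 at 1.34-fold (0.923 to 1.90) to Ssr1 at 1.94-fold (1.52 to 2.47). Set directly side by side, nuclei with 3 or more vector UMIs of the exon 13 deleted and wild-type libraries differed by 2.79-fold for Eif2ak3 (1.93 to 4.12), 4.98-fold for Wfs1 (2.33 to 12.2) and 2.62-fold for Pdia3 (1.75 to 4.01). Without the cluster these were 2.89 (1.86 to 4.51), 2.11 (0.690 to 6.45), from 8 UMIs on each side, and 1.47 (0.825 to 2.58).

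A list of 83 other ER and stress-response genes was read as well, and Perk activity was not measured. In the split of the exon 13 deleted vector library 44 of the 73 measured were higher, against 39.1% of all genes, and 4 lower, against 21.5%. Without the cluster that holds 59 of the 98 nuclei, 33 of 70 were higher, against 33.6%, and 12 lower, against 25.5%. Atf3, a transcription factor induced by Atf4, stood at 107 against 1.34 CPM (124 and 23 UMIs). Ddit3, which encodes Chop and is induced late in ER stress, stood at 57.6 against 7.10 CPM, 8.10-fold (5.92 to 11.0). Without that cluster Ddit3 was at 2.70-fold (1.21 to 5.30), from 9 UMIs, Rpn1 at 2.37-fold (1.61 to 3.39), and Atf3 had 10 UMIs in 39 nuclei and 23 in 1560, under the floor of 100 UMIs. With it, Atf4 itself was 2.09-fold higher (1.46 to 2.92), and Rpn1, a subunit of the oligosaccharyltransferase, 3.38-fold (2.73 to 4.16). With the wild-type vector Ddit3 was at 1.54-fold (0.724 to 2.92), Atf4 at 1.54-fold (0.942 to 2.40), and Atf3 had 1 UMI in the 85 nuclei.

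**Figure D4:**
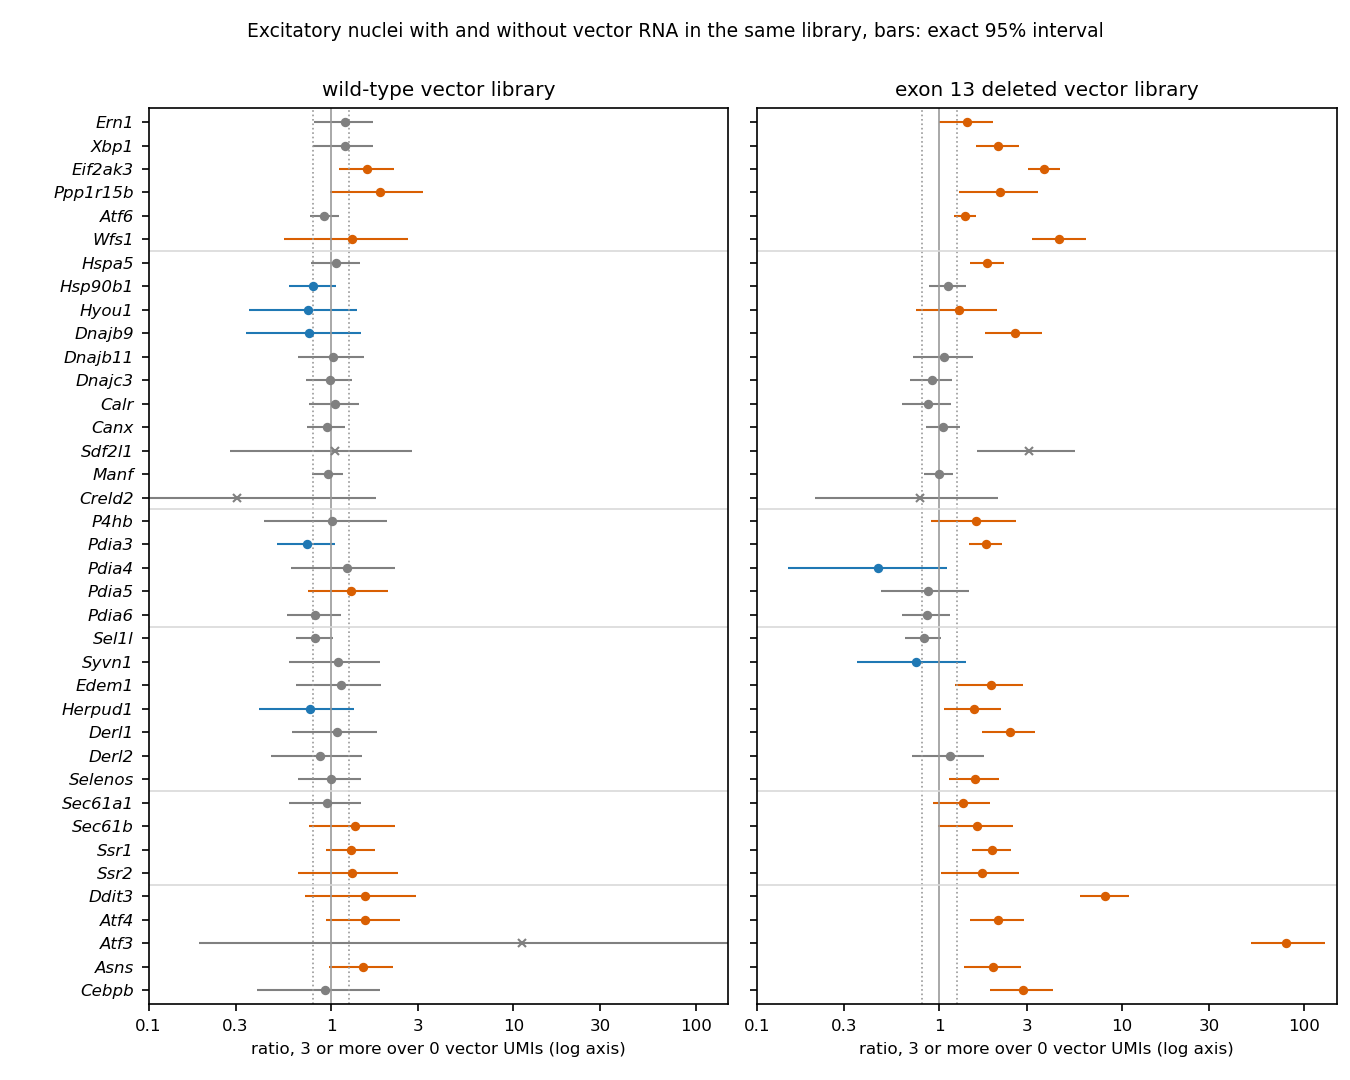
Ratio of levels in excitatory nuclei with 3 or more vector UMIs over nuclei with 0 in the same library, all clusters included (x axis: ratio, log scale; bars: exact 95% interval, counting error only; dotted lines: 4/5 and 5/4; crosses: under the floor; last 5 genes are no members; the intervals of Atf3 and Creld2 in the wild-type vector library run past the axis). With the exon 13 deleted vector Eif2ak3, Wfs1, Ddit3 and Atf3 lie furthest right, and with the wild-type vector no measured member lies above Ppp1r15b at 1.85-fold.

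The cluster that holds 59 of the 98 nuclei has 130 excitatory nuclei, 103 of them from this library, and was found without the members, the 83 other genes or the vector feature. It matched no subclass, and Bdnf and Adcyap1, which encode secreted peptides, were among its leading genes. None of the 85 nuclei with the wild-type vector belonged to it. Without that cluster 12 of 31 members were higher, against 33.6% of 11478 genes, and 7 lower, against 25.5%. The median log2 ratio was 0.08 over the members and 0.09 over all genes, so the members as a list no longer lay above the other genes. Eif2ak3 remained at 3.90-fold (2.87 to 5.19) and Xbp1 at 1.74-fold (1.08 to 2.66), but Hspa5 was at 1.04 (0.648 to 1.59), Pdia3 at 1.01 (0.637 to 1.53) and Wfs1 at 1.94 (0.822 to 3.92), the last from 8 UMIs. In the degradation arm 2 of 7 were then higher and 3 lower, with Derl1 at 1.26-fold (0.569 to 2.42) and Edem1 at 0.730 (0.197 to 1.90), from 9 and 4 UMIs. Ssr1 was at 1.24 (0.751 to 1.93), while Dnajb9 was at 1.87-fold (0.919 to 3.41). Nuclei without vector RNA were also given the same cluster makeup as the 39 nuclei outside that cluster, a setting chosen after seeing the data, with intervals that count the vector nuclei only. Then 14 members were higher, against 35.7% of 11407 genes, and 6 lower, against 24.4%. Eif2ak3 was at 3.63-fold (2.71 to 4.75), Xbp1 at 1.99-fold (1.245 to 3.01) and Wfs1 at 3.62-fold (1.56 to 7.13), while Atf6 was at 1.16 (0.939 to 1.43) and Ern1 at 1.12 (0.581 to 1.96). Outside that cluster no difference in Hspa5 or Pdia3 was detectable at this depth, while Eif2ak3 was as high as with it.

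At 10 or more vector UMIs 18 of 31 members were higher with the exon 13 deleted vector, against 44.8% of all genes, and 1 lower, against 24.4%. With the wild-type vector 11 were higher, against 38.2%, and 9 lower, against 26.3%, in 20 nuclei. Eif2ak3 was also higher in nuclei with more vector RNA, with 28.5, 30.1, 88.7 and 122 CPM in nuclei of the exon 13 deleted vector library with 0, 1 to 2, 3 to 9 and 10 or more vector UMIs. In the wild-type vector library these levels were 24.3, 27.6, 27.6 and 68.3 CPM, the last from 18 UMIs in 20 nuclei. Xbp1 went from 30.9 CPM in nuclei with 3 to 9 vector UMIs to 77.5 in those with 10 or more of the deleted form. Hspa5 went likewise from 44.4 to 115 CPM. These bins differ in makeup, with 20 of 45 and 39 of 53 nuclei in the cluster of 130. Outside it, in 25 and 14 nuclei, Hspa5 stood at 37.3 (18.6 to 66.7) and 63.7 CPM (31.8 to 114), from 11 UMIs each, so no rise was detectable at this depth. Eif2ak3 stood there at 109 (74.2 to 153) and 116 CPM (70.7 to 179), and Xbp1 at 27.1 (11.7 to 53.5) and 81.0 CPM (44.3 to 136).

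The wild-type vector library was last compared with ad lib sleep, which also serves as the reference of the first comparison, so their ratios share that library. In excitatory neurons 4 of 31 members were higher, against 2.57% of 11997 genes, and 1 lower, against 6.26%, with median log2 ratios of 0.01 and -0.02. Edem1 was 1.47-fold higher (1.26 to 1.71), Pdia4 1.35-fold (1.12 to 1.63), Pdia3 1.29-fold (1.19 to 1.40) and Ern1 1.27-fold (1.14 to 1.41). Dnajb9 was at 0.791 (0.683 to 0.914). With each nucleus thinned to 3000 UMIs, Ern1 was at 1.17 and Pdia4 at 1.12, and with equal subclass weight Dnajb9 was at 0.8345, so these counts depend on the setting. The 2 libraries differ in vector delivery as well as in SIK3, and these cannot be told apart.

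Of the 83 other genes, 71 were measured in sleep deprivation against ad lib sleep, and 1 was higher, against 7.18% of all genes, and 7 lower, against 13%. The higher one was Creb3l2, an ER-anchored transcription factor, at 1.45-fold (1.21 to 1.75). The lower ones were led by Cebpb, a transcription factor of the stress response, at 0.665 (0.556 to 0.795), the signal peptidase subunit Spcs3 at 0.682 and the isomerase Txndc5 at 0.692. In the exon 13 deleted against the wild-type vector 3 of 72 were higher, against 5.62%, and 0 lower, against 0.924%: Ddit3 at 1.70-fold, Srp54a, part of the signal recognition particle, at 1.32 and Rpn1 at 1.29. In the wild-type vector against ad lib sleep 1 of 72 was higher, against 2.57%, and 4 lower, against 6.26%, among them Aup1 at 0.681 and Atf4 at 0.783.

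Levels were then compared across cell classes by their range over the 4 libraries. A member was counted as above where its lowest level over the 4 libraries in a class exceeded its highest in excitatory neurons, and as below in the reverse case. The floor of 100 UMIs was asked of the class alone. A gene low in excitatory neurons was therefore counted in glia only where its glial level was high. This favours counts above over counts below, among the members and among all genes. Astrocytes had 18 of 23 measured members above, against 52.2% of all genes, and 1 below, against 18.8%. Oligodendrocytes had 22 of 27 above, against 54.1%, and 1 below, against 20.1%. In both the member below was the sensor Atf6, at 66.4 to 72.7 CPM in astrocytes and 71.8 to 81.6 in oligodendrocytes, against 138 to 156 in excitatory neurons.

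Selenos was furthest above among the members named here in both glial classes, and those after it differed. In astrocytes the mean ratio to excitatory neurons was 2.91 for Selenos, at 73.5 to 90.3 against 25.6 to 30.2 CPM, 2.89 for Wfs1 and 2.50 for Dnajc3, at 116 to 148 against 47.8 to 56.2 CPM. In oligodendrocytes it was 3.57 for Selenos, 3.39 for Ppp1r15b, at 21.3 to 28.5 against 5.56 to 8.32 CPM, 3.19 for Sec61b and 3.07 for Edem1. Wfs1 in astrocytes, and Ppp1r15b, Sec61b and Edem1 in oligodendrocytes, passed the floor only because their glial level was high. The place of these genes in the order is thus partly set by the floor. Hspa5 stood at 80.6 to 135 CPM in astrocytes and 105 to 152 in oligodendrocytes, against 42.9 to 61.1 in excitatory neurons. If the excitatory transcript Slc17a7 in glia is taken to come from the low-depth profile, that profile makes up 23.6% to 30.6% of UMIs in astrocytes. In oligodendrocytes it then makes up 30.9% to 42.0%. The glial levels above include this part, and its part in them was not tested. With every nucleus thinned to 1000 UMIs, 7 of 11 members measured were above in astrocytes, against 53.3% of all genes, and 8 of 12 in oligodendrocytes, against 56.1%.

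Inhibitory neurons were closer to excitatory neurons, with 6 of 31 members above, against 33.9% of all genes, and 5 below, against 16.2%. Above were Edem1 at 17.7 to 20.1 against 8.59 to 14.2 CPM, Derl1 at 20.4 to 23.6 against 13.5 to 17.1, Herpud1, Canx, Hsp90b1 and Hyou1. Below were Pdia5 at 4.13 to 6.17 against 13.7 to 15.6 CPM, Atf6 at 53.9 to 69.3 against 138 to 156, Wfs1, Ern1 and Sec61a1. With every nucleus thinned to 1000 UMIs, 0 of the 11 members still measured were above, against 27.3% of all genes, and the others could not be compared.

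Atf6 and Pdia5 also differed in level between neuron groups. Atf6 stood at 76.6 to 83.0 CPM in L4/5 IT neurons, and at 178 to 200 in L2/3 IT and 166 to 199 in L6 CT neurons, with no overlap. Pdia5 stood at 2.96 to 6.38 CPM in L5 ET neurons and at 36.1 to 57.0 in L6 IT neurons. The neurons with striatal markers had Atf6 at 184 to 212 CPM, overlapping L2/3 IT neurons, with Pdia5 at 20.1 to 42.2 and Ern1 at 8.58 to 12.9 against 22.1 to 28.1 in excitatory neurons.

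**Figure D5:**
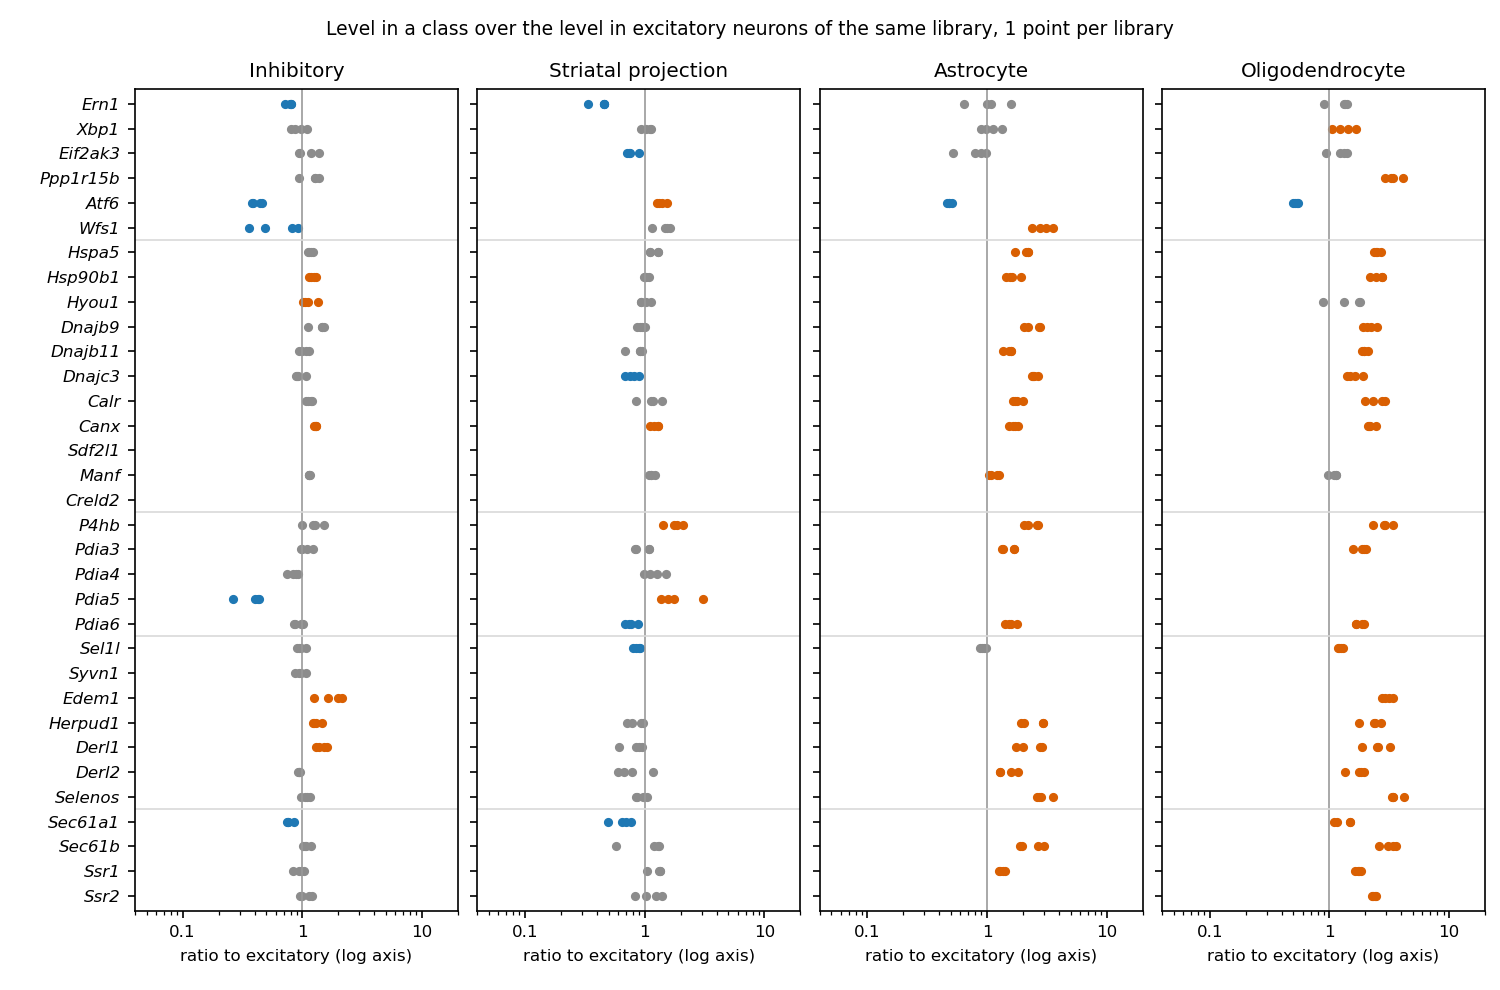
Ratio of each member's level in a cell class to its level in excitatory neurons of the same library (x axis: ratio, log scale; 1 point per library; orange: lowest of the 4 class levels above the highest excitatory level, blue: the reverse, grey: overlapping; members under the floor are blank). Atf6 lies left of 1 in inhibitory neurons, astrocytes and oligodendrocytes and right of 1 in striatal projection neurons.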

How the data were processed

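Nuclei of 4 libraries were read from the matrices of raw UMI counts that the authors deposited. Per the submitters' processing notes and the file headers, these come from Cell Ranger 6.1.2 and mm10; whether intronic reads were counted is not given in the sources used here. Nuclei with at least 500 genes and under 5% mitochondrial UMIs were kept, and the barcodes with the highest Scrublet scores (0.8% per 1000 barcodes) were removed, since its automatic threshold marked 0 to 2 per library. Nuclei were clustered with scanpy 1.11.5 (2000 variable genes, 30 components, 15 neighbours, Leiden resolution 1) on values centred by library, without the members, the other pathway genes or the vector feature, and named from marker lists. The thresholds of the naming were chosen after seeing the data. Counts were summed per library and cell group and given per 1000000 (CPM). Members and lists were chosen with earlier results of these data known. A member was measured at a mean of 5 CPM and 100 UMIs in the libraries compared. Between cell classes the 100 UMIs were asked of the class set against excitatory neurons. Every measured member at a ratio of at least 1.25 or at most 0.8 may be named, with at most 3 of the other pathway genes in each direction. Ratios carry exact conditional 95% intervals and levels exact Poisson 95% intervals. Groups needed 100 nuclei in both libraries. Gene positions are from GENCODE M21. The calculation of ratios was tested on simulated Poisson counts, which hold counting error only, as the intervals assume. That test therefore says nothing about differences between libraries or about the low-depth profile. Alternatives were another floor, fold, filter and scaling (edgeR 4.0.16, TMM), doublets kept, clustering without centring, thinning, other weights, other references and removal of the low-depth profile sized by Gad1; another sizing is not reported here.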

Additional observations from a re-analysis of the deposited data

How the results depend on the processing

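The median log2 ratio over the members ranged from -0.01 to 0.16 for sleep deprivation against ad lib sleep or, in some settings, a vector library. It ranged from -0.02 to 0.06 for the exon 13 deleted against the wild-type vector, and from 0.00 to 0.06 for the wild-type vector against ad lib sleep. The cause of the changes in counts below was not tested. For sleep deprivation, 1 member was higher at a fold of 1.5; 0 were lower at a floor of 20 CPM, and 2 when thinned to 3000 UMIs, with equal subclass weight or as a mean of nuclei. With the wild-type vector library as the reference 3 were higher and 3 lower, and with the exon 13 deleted library 2 and 6, where Pdia3 reversed to 0.978. For the exon 13 deleted against the wild-type vector, 1 member was higher at a floor of 20 CPM, with TMM factors, equal weight, a fold of 1.5, nuclei with 0 vector UMIs, or without the single-library cluster; 4 were higher as a mean of nuclei or with the low-depth profile removed by Gad1, and 5 (with 2 lower) when thinned. For the wild-type vector against ad lib sleep, 2 were higher and 0 lower at 20 CPM, 0 and 0 at a fold of 1.5, 0 lower with TMM factors, doublets kept, no centring or equal weight, 2 lower when thinned, and 7 higher after removal by Gad1. With nuclei thinned to 1000 UMIs the members above excitatory neurons were 0 in inhibitory neurons, 7 in astrocytes and 8 in oligodendrocytes. At 10 or more vector UMIs, 11 were higher and 9 lower with the wild-type vector, against 38.2% and 26.3% of all genes, and 18 and 1 with the exon 13 deleted form, against 44.8% and 24.4%. Without the single-library cluster the latter gave 12 and 7, against 33.6% and 25.5%, and with the same cluster makeup as well 14 and 6, against 35.7% and 24.4%. The ratio for sleep deprivation ranged from 1.10 to 1.42 for Hspa5, from 1.01 to 1.32 for Xbp1 and from 0.529 to 0.827 for Dnajb9. These ranges take in the settings with a vector library as the reference in place of ad lib sleep. The 1.42 of Hspa5 and the 0.827 of Dnajb9 were over the wild-type vector library. The 1.01 of Xbp1 was over the exon 13 deleted vector library. The ratio of the exon 13 deleted over the wild-type vector ranged from 1.17 to 1.29 for Eif2ak3 and from 1.40 to 1.84 for Wfs1. No paired analysis was possible because each group has 1 library and no replicate number, and for the same reason no library could be left out. Depth limits the low genes most: Sdf2l1 and Creld2 could not be compared in excitatory neurons.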
